A study of Populus alba x Populus glandulosa with 18 samples.

Results

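The 200 transcripts described here are those whose level varied least over 18 root libraries of 84K poplar, a hybrid clone of Populus alba and Populus glandulosa. They were taken from the 71159 gene IDs of the deposited table in 3 steps. The 10897 IDs with a mean of at least 10 FPKM (fragment counts corrected for transcript length and library size) were kept. The 200 IDs highest in wild type were then set aside, which left a pool of 10697. From this pool came the 200 IDs with the lowest standard deviation (SD) of log2(FPKM + 1) over all libraries. The members were thus chosen by the values of every library, so their low spread and their small differences between groups describe the choice and are no result of a test.

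Each of 6 groups had 3 root libraries. Wild type (WT) is unmodified 84K. The knockouts were bhlh58-KO (line 6), bhlh151-KO (line 40) and the double knockout bhlh58/151-KO (line 32), and the overexpression lines were bHLH58-OE (line 20) and bHLH151-OE (line 17). Every genotype is 1 line, so what belongs to the genotype and what belongs to the line cannot be told apart, and the sources used here do not give promoters, ages or growth conditions. Whether libraries of 1 group are from different plants is not stated, so p-values refer to the spread between libraries only, which may be technical.

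Basic helix-loop-helix (bHLH) proteins are a large family of plant transcription factors that bind DNA as dimers, and several members act in root growth. A change in such a factor can move many transcripts, while others keep nearly the same level. Transcripts that keep their level are used as internal controls when RNA amounts are compared between samples, as in quantitative PCR, and genes for actin, tubulin, ubiquitin and elongation factors are common choices in plants. The files do not pair the IDs with gene names, so it was not examined whether such genes are among the members. For the same reason the roles of the members, the root markers and the 2 targeted genes are not described.

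The most even member was PAxG10Gg0183600, with an SD of 0.038 on the log2 scale. It was at 25.9, 25.6 and 25.7 FPKM in WT and at 26.4, 25.5 and 25.3 in bhlh58-KO. The bhlh151-KO libraries had 25.9, 27.0 and 27.3 FPKM, and those of the double knockout 25.3, 25.1 and 24.9. It stood at 24.9, 25.7 and 25.5 FPKM in bHLH58-OE and at 25.1, 26.5 and 26.5 in bHLH151-OE. The highest library was 1.099 times the lowest, and the double knockout was the one group whose range did not overlap that of WT. Its difference from WT was not called (-0.032 on the log2 scale, limma adjusted p = 0.686).

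PAxG03Gg0173500 came next with an SD of 0.038 at a higher level. Its WT libraries had 82.7, 86.1 and 86.2 FPKM, and its lowest and highest values were 80.9 in bhlh151-KO and 89.4 in the double knockout. Its level per length was between the 827th and the 1032nd highest of all IDs in every library. PAxG10Gg0183600 held ranks from 3694 to 4177. Evenness in FPKM and evenness in rank are different measures, since transcripts lie closer together at low levels. The 200 members moved by 61 to 2372 ranks (median 963) between their highest and lowest library, and the rest of the pool by a median of 2939.

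**Figure D1:**
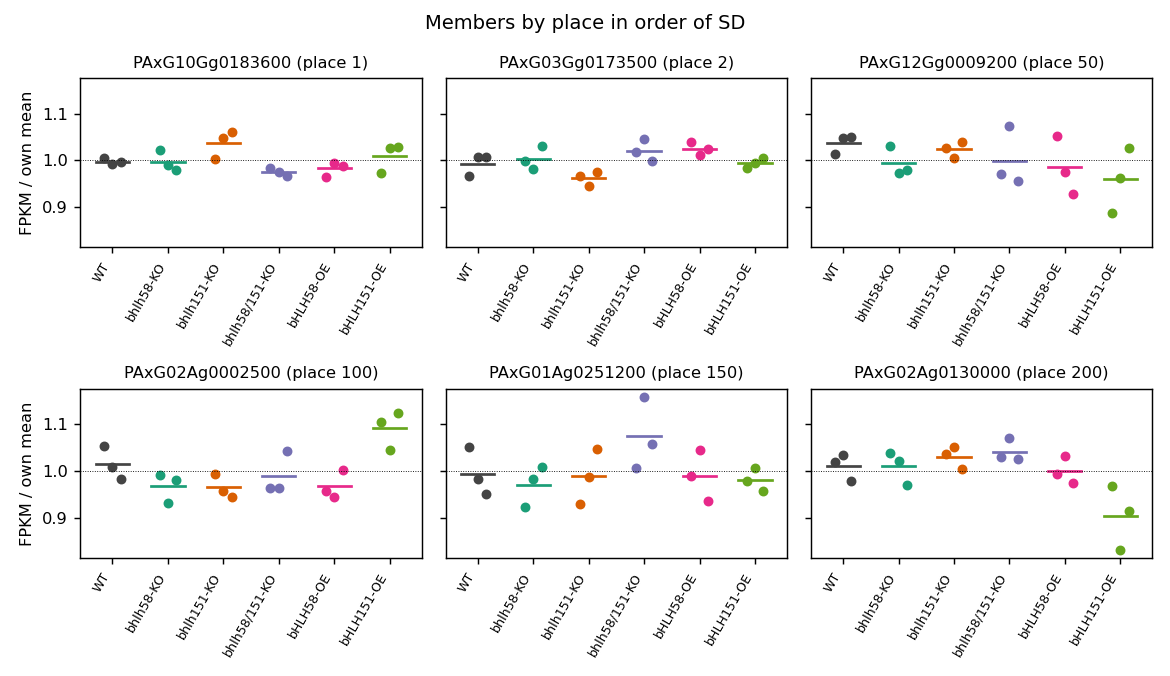
FPKM of 6 members in each library (points), divided by the member's own mean over 18 libraries, with the mean of each group as a line. The members are at places 1, 2, 50, 100, 150 and 200 by SD, and at places 100 and 200 the bHLH151-OE libraries (means of 18.6 and 14.2 FPKM) stand farthest from the others.

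Members further down the order were less alike. PAxG12Gg0009200, at place 50, ran from 10.3 to 12.4 FPKM with a median of 11.7, and both extremes came from single libraries, of bHLH151-OE and of the double knockout. PAxG02Ag0002500, at place 100, was at 18.9, 17.8 and 19.2 FPKM in bHLH151-OE and at 18.0, 17.2 and 16.8 in WT. The other 4 groups of this transcript lay between 15.9 and 17.8 FPKM. PAxG01Ag0251200, at place 150, ran from 18.4 to 23.1 FPKM with its highest library in the double knockout.

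The edge of the choice was not a break in the values. The last member, PAxG02Ag0130000, had an SD of 0.080 and was at 15.2, 13.0 and 14.4 FPKM in bHLH151-OE against 15.2 to 16.8 FPKM in the 15 other libraries. The first ID outside, PAxG03Gg0119500, also had an SD of 0.080 and ran from 39.3 to 48.3 FPKM. Its WT libraries (41.7, 41.5 and 40.6) lay below every library of bhlh58-KO (45.0 to 45.7), bhlh151-KO (43.2 to 45.8), the double knockout (42.1 to 45.7) and bHLH151-OE (45.2 to 48.3), and within the range of bHLH58-OE (39.3 to 43.5).

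Over the 200 members the highest library was 1.099 to 1.30 times the lowest, with a median of 1.21. In the rest of the pool the median of this ratio was 1.67 over the 10492 IDs with no library at 0. All 200 members and 32.2% of the rest had their highest library under 1.5 times the lowest. The coefficient of variation of the members' FPKM ran from 2.68% to 6.05%, and its median of 5.28% compared with 14.4% in the rest.

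**Figure D2:**
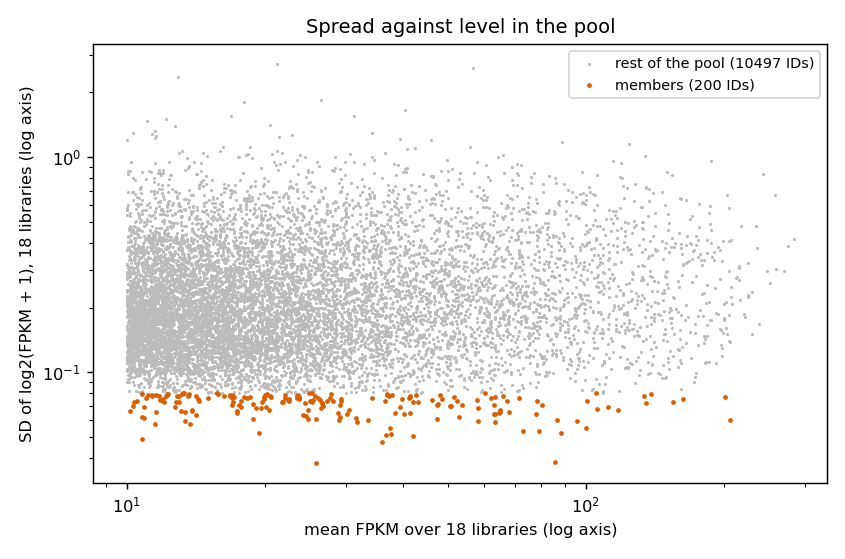
Each point is 1 ID of the pool, with its mean FPKM on the horizontal log axis and the SD of log2(FPKM + 1) over 18 libraries on the vertical log axis. The 200 members (orange) lie along the lower edge at SDs of 0.038 to 0.080, over means from 10.1 to 206 FPKM, beside a median SD of 0.20 in the rest of the pool (grey).

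The members covered a wide range of levels. PAxG03Ag0125100 had the highest mean, 206 ± 8.66 FPKM (SD, n = 18), and PAxG03Ag0073300 the lowest, 10.1 ± 0.505. Members made up 1.20% of the pool IDs with means of 10 to 15 FPKM, 1.44% from 15 to 20, 2.43% from 20 to 50, 2.90% from 50 to 100, and 2.29% (12 of 524) from 100 upward. Members were thus least frequent at the low end of the pool, although the median SD of the pool rose with level, from 0.18 in the lowest of these ranges to 0.24 in the highest.

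In PAxG03Ag0125100 a low overall spread went with group ranges that did not all overlap. Its bhlh151-KO libraries had 220, 219 and 214 FPKM and its bHLH58-OE libraries 200, 196 and 193, with WT at 202, 201 and 210. The bhlh151-KO libraries lay above all WT and all bHLH58-OE libraries. The limma fit did not call bhlh151-KO (0.094, adjusted p = 0.0595) or bHLH58-OE (-0.057, adjusted p = 0.495) against WT. Its moderated F test over the 6 groups did call this member (adjusted p = 0.0219). The groups bhlh151-KO and bHLH58-OE were not tested against each other. Of its sum of squares on the log2 scale, 81.8% lay between groups. In PAxG08Ag0056800, the member with the lowest such share (6.41%), every group overlapped every other, at 12.3 to 14.3 FPKM.

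The low spread of the members came from both sources of variation. The pooled SD within groups had a median of 0.062 in the members and 0.11 in the rest of the pool, on the log2 scale. The distance between the highest and the lowest group mean had medians of 0.13 and 0.47. These distances differ by more than the SDs within groups do, and the share of the sum of squares between groups had a median of 45.6% in the members and 77.7% in the rest. Outside the list, 703 IDs (6.70% of the rest) had a pooled SD within groups at or below the members' median of 0.062, and 3153 (30.0%) had one at or below the largest of any member, 0.088.

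No single axis dominated the differences among members. The first principal component of the members' log2 values held 14.2% of their variance and the second 12.0%, while the first component of the rest of the pool held 53.5%. On the members' first component, in units of a root mean square log2 difference, WT was at -0.045 ± 0.010 (SD, n = 3) and bHLH151-OE at 0.031 ± 0.0052. The other means were -0.014 for bhlh58-KO, -0.0026 for bHLH58-OE, 0.011 for the double knockout and 0.020 for bhlh151-KO. WT libraries lay at one end of this axis, with no overlap with any other group. The same held on the first component of the rest of the pool, with WT at -0.26 ± 0.015.

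Of the members, 105 (52.5%) had an ID with the letter A, 86 (43.0%) one with the letter G, and 9 (4.50%) were NewGene IDs. The rest of the pool had 47.9%, 46.1% and 5.94% of these forms. The numbers in the lettered IDs run from 1 to 19. Every one of the 38 combinations of number and letter held at least 1 member. The share of pool IDs that were members ran from 0.773% (3 of 388, number 7) to 3.29% (19 of 577, number 3), and the smallest of these counts rest on few IDs.

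The spacing of members in ID number was described only, and it was not compared with that of other IDs. One pair, PAxG09Gg0139900 and PAxG09Gg0140000, had no ID between them in the table. Their levels were far apart, at 12.7 ± 0.648 and 135 ± 6.78 FPKM (SD, n = 18). PAxG09Gg0140000 was at 127, 125 and 125 FPKM in bhlh151-KO and at 138, 147 and 135 in the double knockout, with no overlap. These groups were not tested against each other. The double-knockout libraries of PAxG09Gg0139900 (12.2, 12.2 and 11.8 FPKM) lay below those of WT (13.5, 12.9 and 13.5). This difference was not called (-0.13 on the log2 scale, limma adjusted p = 0.162). The next pair, PAxG01Ag0381000 (22.1 ± 1.27 FPKM) and PAxG01Ag0381600 (17.4 ± 0.797), had 5 IDs between them. In all, 4 pairs of members had at most 5 IDs between them.

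The most even NewGene members were NewGene_361, at 90.5 to 105 FPKM, and NewGene_4605, at 17.5 to 20.0 FPKM. NewGene_361 was at 101, 102 and 101 FPKM in WT, and its lowest value, 90.5, came from 1 of the bhlh151-KO libraries, whose others had 98.6 and 99.5. NewGene_4605 was at 19.8, 20.0 and 19.7 FPKM in bHLH151-OE, above the 3 WT libraries (19.1, 18.1 and 18.8). This difference was not called (0.087 on the log2 scale, limma adjusted p = 0.294).

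All 200 members were among the 40951 IDs tested between groups, which had at least 1 FPKM in 3 or more libraries. Calls were made in 1 limma fit over all 18 libraries, at an adjusted p (Benjamini-Hochberg) under 0.05. The choice of members used these contrasts, so the counts below stand beside the share called over all tested IDs and nothing is read from them. In bhlh58-KO against WT, 6 members were called (2 higher and 4 lower) beside 22.4% of all tested IDs. In bhlh151-KO 14 were called (7 and 7) beside 48.4%, in the double knockout 7 (3 and 4) beside 28.8%, and in bHLH151-OE 11 (5 and 6) beside 32% of tested IDs. In bHLH58-OE 0 were called, beside 5.37% (3.3% higher and 2.07% lower). There 14 members had an unadjusted limma p under 0.05, and the share of all tested IDs at that limit was not taken. By direction, the calls over all tested IDs were 12.9% higher and 9.51% lower in bhlh58-KO, 17.6% and 30.8% in bhlh151-KO, 12.6% and 16.3% in the double knockout, and 11.5% and 20.4% in bHLH151-OE.

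These small counts were lower when 1 library of either group compared was left out, in fits that hold fewer libraries. Without WT replicate 1, 2 or 3 the count for bhlh58-KO was 1, 3 or 2, and without bhlh58-KO replicate 1, 2 or 3 it was 2, 4 or 1. For bhlh151-KO it was 6, 7 or 11 without a WT library and 12, 12 or 5 without one of its own, in the same order. For the double knockout the counts were 3, 5 or 4 and 4, 4 or 6, and for bHLH151-OE they were 3, 3 or 4 and 6, 7 or 5. In a fit of only the 2 groups compared, the counts were 2, 3, 2 and 2 for bhlh58-KO, bhlh151-KO, the double knockout and bHLH151-OE. They stood beside 21.6%, 45.6%, 26.4% and 27.6% of tested IDs. A moderated F test for any difference among the 6 groups called 14 members beside 56.7% of tested IDs. Without WT replicates 1, 2 and 3 it called 8, 9 and 9, without bhlh151-KO replicates 1 and 3 it called 9 and 5, without bhlh58-KO replicate 3 it called 8, and without bhlh58/151-KO replicate 2 or bHLH151-OE replicate 2 it called 9. In all, 176 members were called in none of the 5 comparisons, 13 in 1, 9 in 2, 1 in 3 and 1 in 4. The same split was not made over all tested IDs, so nothing is read from it. The 5 comparisons share the WT libraries.

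NewGene_833 was the member called in 4 comparisons. It was at 186, 178 and 188 FPKM in WT, below all 15 other libraries. These ran from 193 in bhlh151-KO and in bHLH58-OE to 216 in bHLH151-OE. Its log2 difference from WT was 0.20 (SE 0.048) in bHLH151-OE, 0.18 in the double knockout and 0.14 in both single knockouts. In bHLH58-OE it was 0.12 and not called. Its calls in the single knockouts did not hold in every fit with 1 library left out. Such fits hold fewer libraries and had larger SEs (0.056 in bhlh58-KO without WT replicate 1, 0.048 over all libraries). Without WT replicate 1 or 3 the difference in bhlh58-KO was larger than over all libraries. The call in bhlh58-KO ended without WT replicate 1, 2 or 3 (0.15, 0.12 and 0.16) and without bhlh58-KO replicate 1 or 3 (0.13 each). The call in bhlh151-KO ended without WT replicate 2 (0.11) and without bhlh151-KO replicate 1 or 3 (0.13 and 0.11).

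PAxG12Ag0055500 was also higher in bHLH151-OE, at 55.6, 54.8 and 55.2 FPKM against 47.8, 48.9 and 48.6 in WT (log2 difference 0.19, SE 0.054). Its bhlh151-KO libraries had 52.3, 52.6 and 57.6 FPKM, likewise above WT. Those of bhlh58-KO (49.9 to 51.6) lay above WT too, without a call. The double knockout (48.4 to 53.2) and bHLH58-OE (48.6 to 50.8) overlapped WT. PAxG01Ag0291200, the member with the largest share of its sum of squares between groups (86.3%), was lower in the double knockout. It was at 18.2, 18.9 and 18.4 FPKM there and at 20.5, 21.8 and 22.3 in WT (-0.21, SE 0.056). The single knockouts were at 20.2 to 20.5 FPKM in bhlh58-KO, the highest of these about level with the lowest of WT, and at 20.9 to 21.3 in bhlh151-KO, within their range. Both overexpression lines also lay below WT, at 19.2 to 19.5 FPKM in bHLH58-OE and 19.0 to 20.3 in bHLH151-OE, and neither was called. The call of PAxG01Ag0291200 in the double knockout ended in a fit of WT and the double knockout only.

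NewGene_7022 was lower in bhlh151-KO, at 123, 126 and 119 FPKM against 145, 138 and 141 in WT (-0.20, SE 0.047). The double knockout was at 144, 137 and 135 FPKM, overlapping WT, and bhlh58-KO at 133, 134 and 132, below WT. The bHLH151-OE libraries also lay below WT and were not called (-0.11). Their highest, 137.3 FPKM, was just under the lowest of WT, 137.7. Those of bHLH58-OE (133 to 143) overlapped WT. These 4 members had the largest called differences from WT in either direction, so no called difference of a member exceeded 0.21 in size. The non-additive contrast compares the change in the double knockout with the sum of the changes in both single knockouts. It called 6 members, 4 above and 2 below the sum, beside 29.3% of tested IDs (15.9% above and 13.5% below). Under median-of-ratios scaling 1 was called above and 11 below the sum, beside 29.5% of tested IDs. Under quantile normalization 15 were called above and 1 below, beside 28.6%, so the direction turned with the scaling. As deposited, it called 4 without bhlh151-KO replicate 1 or bhlh58/151-KO replicate 3, and 1 to 3 without any other library of these 4 groups.

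**Figure D3:**
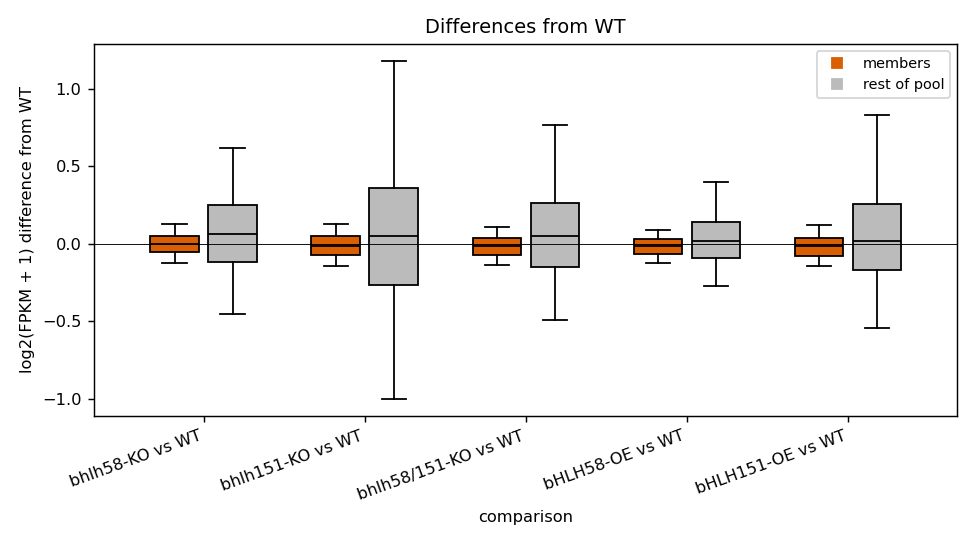
Boxes give the quartiles and the median of the log2(FPKM + 1) difference of each line from WT, and whiskers the range from the 5th to the 95th percentile, for the 200 members (orange) and the 10497 other IDs of the pool (grey). Member differences ran from -0.21 to 0.20 over all 5 comparisons, which the choice fixes, while the grey box is widest in bhlh151-KO, with quartiles at -0.26 and 0.36.

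The sign of the members' common difference depended on how the libraries were scaled. As deposited, the median log2 difference of the members was 0.00012 in bhlh58-KO, -0.011 in bhlh151-KO, -0.015 in bhlh58/151-KO, -0.015 in bHLH58-OE and -0.017 in bHLH151-OE. The medians over all tested IDs were 0.0091, -0.11, -0.064, 2.09e-06 and -0.091 in the same order. Median-of-ratios scaling, which sets the median of 46001 IDs detected in every library level, moved the median of all IDs in bhlh151-KO to 0.00068 and that of the members to 0.13. Under it the members had medians of 0.054 in the double knockout and 0.095 in bHLH151-OE. Quantile normalization moved them the other way, to -0.094, -0.097 and -0.078 in bhlh151-KO, the double knockout and bHLH151-OE.

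The calls followed these shifts. In bhlh151-KO 71 members were called higher and 0 lower under median-of-ratios scaling, and 0 higher and 65 lower under quantile normalization. The shares of all tested IDs called in either direction were 46.2% and 43.3%. For the double knockout the counts were 14 and 0 against 0 and 40, beside 27% and 26.5% of tested IDs. For bHLH151-OE they were 36 and 0 against 0 and 42, beside 28.4% and 27.6%. For bhlh58-KO they were 1 and 4 against 1 and 17, beside 22% and 22.9%. Rescaling to a common total (TPM) gave 0 higher and 6 lower in bhlh58-KO (beside 22%) and 0 and 18 in bhlh151-KO (beside 49.3%). It gave 1 and 15 in the double knockout (beside 31%) and 2 and 19 in bHLH151-OE (beside 33.9%). NewGene_7022 was not called under median-of-ratios scaling (-0.053), nor PAxG01Ag0291200 (-0.14), and neither NewGene_833 (0.081) nor PAxG12Ag0055500 (0.037) was called under quantile normalization.

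**Figure D4:**
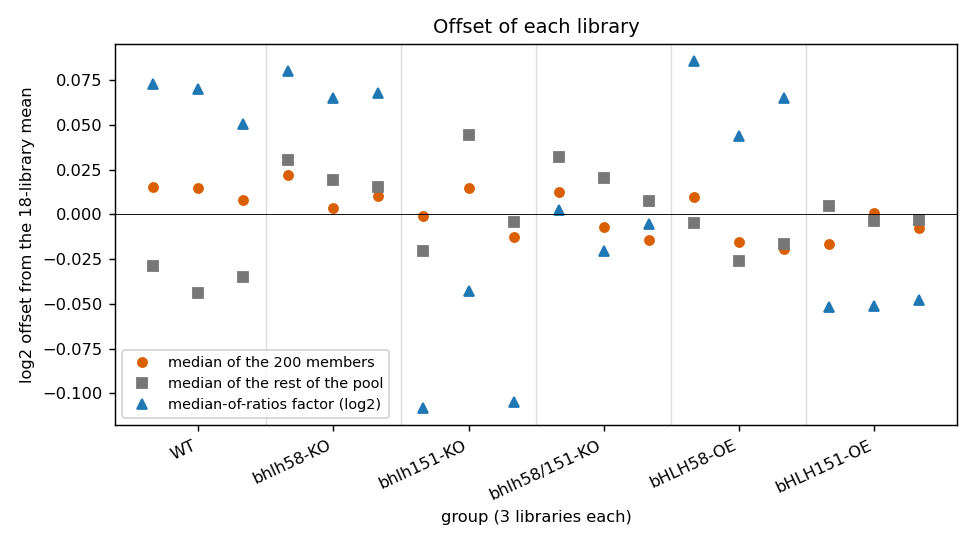
For each library, points give the median log2 offset from the 18-library mean of the 200 members (circles) and of the rest of the pool (squares), and the log2 median-of-ratios factor (triangles). Member offsets stay between -0.019 and 0.022, while the factors run from -0.11 in bhlh151-KO to 0.086 in bHLH58-OE.

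The members taken as a whole were nearly level in the deposited values. Their summed FPKM ran from 7366 in bhlh151-KO replicate 3 to 7561 in bhlh58/151-KO replicate 1, with a coefficient of variation of 0.760%, and their geometric mean from 28.0 to 28.8 FPKM. By group the sums were 7512 ± 34.8 FPKM in WT, 7533 ± 27.2 in bhlh58-KO, 7439 ± 68.1 in bhlh151-KO, 7494 ± 88.8 in the double knockout, 7465 ± 65.4 in bHLH58-OE and 7478 ± 18.8 in bHLH151-OE (SD, n = 3). The median-of-ratios factors by group were 0.065 ± 0.012 in WT and -0.085 ± 0.037 in bhlh151-KO on the log2 scale. Library depth is unknown, and which of the scalings is nearer to the amounts of RNA was not tested. Total FPKM per library, 514745 to 536562, says nothing of depth.

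A ratio of 2 transcripts within a library is not moved by a scaling with 1 factor per library (as deposited, TPM or median-of-ratios), but quantile normalization does change it. Over the 19900 pairs of members, the SD of the log2 FPKM ratio over 18 libraries ran from 0.040 to 0.15, with a median of 0.10. The closest pair, PAxG03Ag0125100 and PAxG10Ag0181300, was picked for this value. Averaged over all partners, the lowest ratio SD was that of PAxG10Gg0183600, at 0.083, that of PAxG03Gg0173500 was 0.084, and the highest of any member was 0.11.

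The choice itself was repeated without each group in turn, so that the values of the group left out took no part in the mean or the SD. The 200 IDs highest in WT stayed set aside each time, so WT values still shaped the pool when WT was left out. Of the 200 members, 156 were chosen again without bHLH58-OE, 149 without the double knockout, 143 without bHLH151-OE, 141 without bhlh58-KO, 127 without WT and 108 without bhlh151-KO. Whichever group was left out, 74 members were chosen again. Leaving out single libraries kept 166 to 187.

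The group left out could then be measured in IDs chosen for evenness in the other 15 libraries. In bhlh151-KO the mean of the 3 libraries was within 0.1 log2 of the mean of the others for 97 of 200 such IDs (48.5%), beside 26.7% in the rest of that pool. For WT the shares were 54.5% of the chosen IDs and 29.4% of the rest, for bHLH151-OE 70.0% and 40.5%, and for bhlh58-KO 72.0% and 43.5%. For the double knockout they were 78.5% and 47.5%, and for bHLH58-OE 86.5% and 40.5%. The shares were lowest for bhlh151-KO and WT in the chosen IDs and in the rest of the pool alike, so this end of the order is that of the whole pool. The highest share of the chosen IDs was in bHLH58-OE and the highest of the rest in the double knockout, and no order was tested.

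All 3 bhlh151-KO libraries lay outside the range of the other 15 in 60 of these 200 IDs, 21 above and 39 below. This is 30.0%, beside 24.9% in the rest of that pool and 15.7% of all tested IDs. A narrow range among the other 15 is easier to fall outside of, and its part in this count was not tested. The count was 40 for WT (20.0%, beside 13.5% in the rest of its pool and 7.89% of all tested IDs) and 23 for bhlh58-KO (11.5%, beside 3.64% and 2.63%). It was 18 for bHLH151-OE (9.00%, beside 3.29% and 1.86%), 12 for the double knockout (6.00%, beside 2.66% and 1.55%) and 3 for bHLH58-OE (beside 1.89% and 1.26%). Under the other scalings and a pseudocount of 0.1 the bhlh151-KO count ran from 51 to 65, and it split into 26 above and 25 below under median-of-ratios scaling. In the limma fit against WT, 79 of the 200 IDs chosen without bhlh151-KO were called (39.5%, beside 48.4%), 33 of those without bHLH151-OE (16.5%, beside 32%), 27 of those without bhlh58-KO (13.5%, beside 22.4%), 18 of those without the double knockout (9.00%, beside 28.8%) and 1 of those without bHLH58-OE (0.500%, beside 5.37%). WT and the spread within the other groups did take part in those choices.

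**Figure D5:**
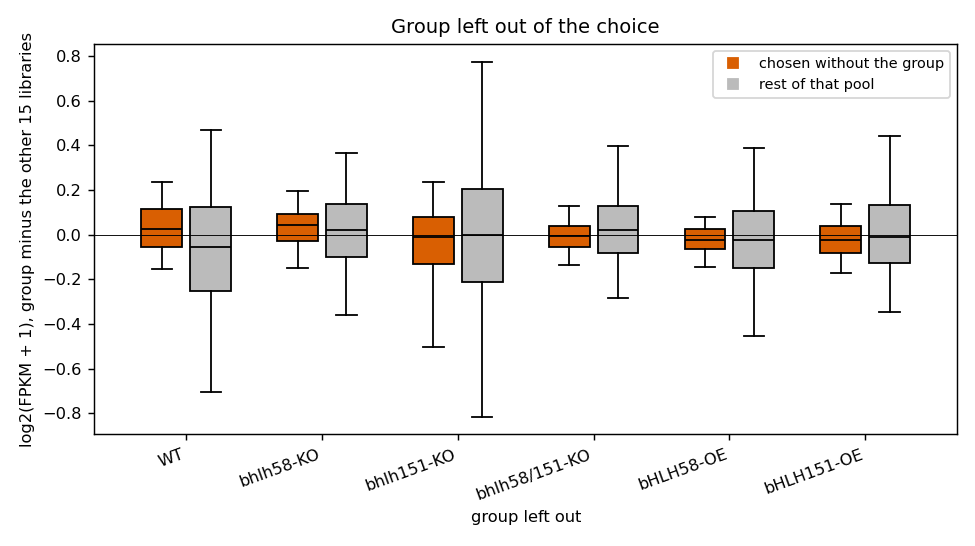
Boxes give quartiles and medians, and whiskers the 5th to 95th percentile, of the mean log2(FPKM + 1) of a group minus that of the other 15 libraries, for the 200 IDs chosen without that group (orange) and the rest of that pool (grey). The orange whiskers are longest for bhlh151-KO, where 95% of the 200 absolute differences were under 0.50, against 0.14 for bHLH58-OE.

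The largest departure of bhlh151-KO among the IDs chosen without it was that of PAxG17Ag0210000, which was named after its values had been seen. It was at 182, 170 and 192 FPKM in WT, 173, 163 and 167 in bhlh58-KO, 183, 184 and 175 in bhlh58/151-KO, 165, 189 and 176 in bHLH58-OE and 170, 180 and 170 in bHLH151-OE. In bhlh151-KO it was at 90.9, 78.3 and 92.2 FPKM, below every other library. It fell against WT by 1.05 on the log2 scale (SE 0.064, limma adjusted p = 9.97e-11), and its log2 difference from WT ran from -1.13 to -0.90 over the alternatives, with a call in each.

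In the opposite direction, PAxG08Ag0041900 was at 63.4, 65.5 and 66.9 FPKM in bhlh151-KO and between 43.6 and 50.4 in the 15 other libraries. It rose against WT by 0.46 on the log2 scale (SE 0.063, limma adjusted p = 6.58e-06), with 0.32 to 0.60 over the alternatives, each of them called. In the double knockout, which also lacks bHLH151 by its label, neither ID was called (log2 differences from WT of -0.0024 and 0.014, limma adjusted p = 0.983 and 0.889). PAxG17Ag0210000 and PAxG08Ag0041900 are not among the 200 members, since their SDs over all 18 libraries were 0.39 and 0.19.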

How the data were processed

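The authors deposited 1 table of FPKM values per gene ID and library for 18 root libraries, and the unit is that of the table's name. RNA was extracted with a TIANGEN RNAprep Pure Plant Kit and libraries were built with a NEBNext Ultra kit, per the labels' protocols. Aligner, quantifier, genome build, annotation and filters: not given in the sources used here. Depth is unknown: in 153 pairs of libraries, at most 1.61% of the ratios of IDs under 0.3 FPKM fell in any bin of 0.02 log2, so whole reads were not recovered.

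Members and lists were chosen with earlier results of these data known. Values were log2-transformed after adding a pseudocount of 1. Testing covered the IDs that reached 1 FPKM in 3 libraries and was done with limma 3.58.1 in R 4.3.3 (a mean per group, trended and robust empirical Bayes, 12 residual degrees of freedom, Benjamini-Hochberg over 40951 IDs), and the procedure was tested on simulated data. Python 3.11.15 was used for the rest. Every log2 difference is on this scale and understates changes of low IDs.

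Named IDs are the 2 lowest by SD, places 50, 100, 150 and 200, the first outside, the highest and lowest mean, the 2 largest called differences from WT in each direction, the extremes of the share between groups, the 2 most even NewGene IDs and the 2 nearest pairs. Of the 2 symbol lists (plant reference genes, root markers) 0 IDs matched. Replicate numbers did not pair libraries, by correlations of deviations from group means between libraries of different groups. These were -0.17 to 0.074 (median 0.0054) in 45 pairs of the same number. In 90 pairs of other numbers they were -0.094 to 0.15 (median -0.0050). Alternatives were other pseudocounts, filters, scalings, spread measures, a replicate block, fits of 2 groups and omitted libraries or groups.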

Additional observations from a re-analysis of the deposited data

Results flagged for a closer look

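In NewGene_7022, the difference of bhlh151-KO from WT was unlike that of the double knockout from bhlh58-KO, which was not tested by itself. The change of NewGene_7022 in the double knockout exceeded the sum of the changes in both single knockouts by 0.26 on the log2 scale (SE 0.067). The limma fit called this contrast. The contrast ran from 0.19 under median-of-ratios scaling to 0.28 over 19 alternatives, which were added after seeing the data, and was called in each. The difference of bhlh151-KO from WT that it contains was -0.20 as deposited, but -0.053 and not called under median-of-ratios scaling, where the median contrast of the members moved from 0.00029 to -0.068. The 3 bhlh151-KO libraries (119 to 126 FPKM) lay below those of WT, and the 3 double-knockout libraries (135 to 144) lay above those of bhlh58-KO (132 to 134). The member was chosen for its low spread and its difference was among the largest of the list, so this value is a description. Each genotype is 1 line, and what belongs to a line cannot be told apart from what belongs to the genotype.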

How the results depend on the processing

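The choice of members depended on scaling and on the measure of spread. Of the 200 members, 65 were chosen again with median-of-ratios scaling, 107 with quantile normalization, 37 by the pooled SD within groups, 128 with a minimum mean of 20 FPKM and 0 without a minimum. It was 127 without WT and 108 without bhlh151-KO. TPM rescaling kept 160, a pseudocount of 0.1 kept 187, and 18 members stayed under all 3 other scalings. Leaving out 1 library kept 166 to 187.

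Counts of called members moved by more than 1.5 times as follows, apart from part of the fits without 1 library. The shares of all tested IDs called under the other scalings are given above. For any difference among the 6 groups no such share was taken under them. Under median-of-ratios scaling they were 71 in bhlh151-KO (14 as reported), 14 in the double knockout (7), 36 in bHLH151-OE (11), 12 in the non-additive contrast (6) and 77 for any difference among the 6 groups (14). Under quantile normalization they were 65, 40, 42, 16 and 60 in the same order, with 18 in bhlh58-KO (6). In bHLH58-OE it called 2 (0), beside 5.92% of tested IDs. TPM rescaling gave 16 in the double knockout and 21 in bHLH151-OE. In the double knockout, testing all IDs above 0 gave 11 (beside 19.3%) and a mean of at least 5 FPKM gave 13 (beside 39.3%). Fits of 2 groups gave 2 in bhlh58-KO, 3 in bhlh151-KO, 2 in the double knockout and 2 in bHLH151-OE. Without 1 library the counts were 1 to 4 in bhlh58-KO, 5 to 12 in bhlh151-KO, 3 to 6 in the double knockout, 0 in each case in bHLH58-OE, 3 to 7 in bHLH151-OE, 1 to 4 in the non-additive contrast and 5 to 12 for any difference. In the same order, 1, 3, 2, 6 and 0 of 6 such fits, 2 of 12 and 10 of 18 stayed within 1.5 times.

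Median member differences moved by more than the SD of 0.012 between libraries of a group under the scalings listed here. TPM rescaling gave -0.023 in bhlh58-KO, -0.039 in bhlh151-KO, -0.057 in the double knockout, -0.033 in bHLH58-OE and -0.050 in bHLH151-OE. Quantile normalization gave -0.053, -0.094, -0.097, -0.041 and -0.078. Median-of-ratios scaling turned the sign in bhlh151-KO (0.13), the double knockout (0.054) and bHLH151-OE (0.095). Without 1 library the medians ran from -0.00047 to 0.0086, -0.030 to -0.0039, -0.025 to -0.0064, -0.022 to -0.0068 and -0.023 to -0.013. Of the 6 such fits per comparison, 6, 5, 6, 6 and 6 moved by less than that SD. The IDs chosen without bHLH58-OE whose 3 libraries lay outside the others numbered 3 as reported, 17 with median-of-ratios scaling, 5 with TPM rescaling and 7 with quantile normalization, settings chosen after seeing the data. The causes of these moves were not tested.

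Replicate numbers are shared between groups but did not pair the libraries. With a replicate block the counts of called members were 5 in bhlh58-KO, 12 in bhlh151-KO, 5 in the double knockout, 0 in bHLH58-OE, 10 in bHLH151-OE, 4 in the non-additive contrast and 10 for any difference. The largest called difference of NewGene_833, PAxG12Ag0055500, PAxG01Ag0291200 and NewGene_7022 from WT kept its sign under every alternative run, as did that of PAxG17Ag0210000 and PAxG08Ag0041900 in bhlh151-KO. The other differences of NewGene_833, run after seeing the data, also kept their sign: 6 of 14 alternatives called it in bhlh58-KO, 8 of 14 in bhlh151-KO, 13 of 14 in the double knockout and 0 of 14 in bHLH58-OE.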
